A study of Mus musculus with 18 samples.

Results

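The 10 genes described here handle the amino acid arginine and the polyamines made from it: Arg1, Arg2, Nos2, Slc7a2, Odc1, Oaz1, Srm, Sms, Sat1 and Ass1. They were chosen by name as arginase, arginine transport, nitric oxide and polyamine genes, and are 10 of 50686 gene identifiers in the deposited count table. The low Arg1 level of 1 genotype was already known when they were chosen. Levels of the 10 in that genotype, and every difference that uses them, are therefore a description with no p-value. Counts of calls among them are printed beside the share over all genes, and nothing is read from them.

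Messenger RNA was sequenced from primary microglia, the resident macrophages of the brain, grown from the forebrains of C57BL/6 mouse pups of postnatal day 2. The cultures ran for 7 days, had their medium changed and ran for 7 more, after which the cells were shaken off and plated. There were 18 libraries, 3 for each of 6 genotypes: WT, Tbk1+/-, Tak1ΔM/+, Tbk1+/-;Tak1ΔM/+, Tbk1+/-;Ripk1D138N/D138N and Tbk1+/-;Tak1ΔM/+;Ripk1D138N/+. No genotype received a treatment. Tbk1 and Map3k7 (the gene of TAK1) encode kinases of inflammatory signalling that restrain the kinase RIPK1. RIPK1 with D138N has lost its kinase activity. The labels do not say which Cre line or cell type drives the ΔM deletion, nor whether replicates were separate litters, pups or flasks. Every p-value therefore measures the spread between these libraries, which may be technical. Below, Tbk1+/-;Tak1ΔM/+ is called the double heterozygote, Tbk1+/-;Tak1ΔM/+;Ripk1D138N/+ the triple heterozygote and Tbk1+/-;Ripk1D138N/D138N the D138N homozygote.

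Arginine enters macrophages through cationic transporters and is then split by arginase into urea and ornithine, or turned by nitric oxide synthase into nitric oxide and citrulline. Arginase and inducible nitric oxide synthase compete for the same substrate, and their balance is a classical way of describing macrophage activation. Ornithine feeds the polyamine pathway, in which ornithine decarboxylase makes putrescine, and aminopropyl groups are then added to give spermidine and spermine. Antizyme and an acetyltransferase pull the polyamine pool back down.

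Levels are given as CPM, a gene's counts over the scaled total of its library times 1e+06. Summed, 12 microglia markers reached 9548 to 11659 CPM per library. Tak1ΔM/+ (11136 to 11365 CPM) lay above WT (9630.5 to 10287 CPM) and double heterozygotes (9723 to 10540 CPM), and the libraries labelled as triple heterozygotes (10341 to 11465 CPM) lay above WT. The microglia-restricted markers P2ry12 and Tmem119 were low, at medians of 9.99 and 4.31 CPM over the libraries, while Csf1r had a median of 2211 CPM. Border macrophage and monocyte markers summed to 865 to 1620 CPM, mostly from Ms4a7, Mrc1, Pf4 and F13a1. Neuron markers stayed at or below 21.1 CPM in sum, and Rgs5, Hbb-bs, Hba-a1, Ncr1 and S100a9 had no count. Total counts ran from 8016559 to 22989116 per library. Tbk1 itself was 104 to 149 CPM in WT and 50.5 to 65.6 CPM in Tbk1+/-. The 3 libraries labelled as triple heterozygotes (107 to 123 CPM) and replicates 1 and 3 labelled as D138N homozygotes (130 and 131 CPM) went against their labels. The third library of that last genotype, replicate 2, held 54.9 CPM. Each result that rests on these 5 libraries is a comparison of labels. Map3k7 was 13.5 ± 4.94 CPM in WT, 8.76 ± 1.33 in Tak1ΔM/+ and 11.3 ± 4.62 in double heterozygotes (SD, n = 3), the last overlapping WT, and was not called in either (edgeR adjusted p = 0.561 and 0.714). The labels do not say which part of Map3k7 the ΔM allele lacks, so its level does not check that label.

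For 2 of the genes on the polyamine side, the bases just upstream of the annotated start are shown, because Odc1 and Sat1 are the gene that opens polyamine synthesis and the gene that opens polyamine breakdown and stood on opposite sides of WT in double heterozygotes. Both are RefSeq sequences on GRCm38.p6, written 5′ to 3′ on the gene's strand, with GC boxes in capitals (GGGCGG, or CCGCCC where the match is on the other strand). Odc1 lies at chr12:17544623-17544793 on the plus strand and Sat1 at chrX:155216450-155216699 on the minus strand.
Odc1: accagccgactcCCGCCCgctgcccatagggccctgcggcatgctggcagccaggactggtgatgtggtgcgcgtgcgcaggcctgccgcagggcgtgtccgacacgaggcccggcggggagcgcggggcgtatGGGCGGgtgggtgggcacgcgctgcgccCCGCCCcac
Sat1: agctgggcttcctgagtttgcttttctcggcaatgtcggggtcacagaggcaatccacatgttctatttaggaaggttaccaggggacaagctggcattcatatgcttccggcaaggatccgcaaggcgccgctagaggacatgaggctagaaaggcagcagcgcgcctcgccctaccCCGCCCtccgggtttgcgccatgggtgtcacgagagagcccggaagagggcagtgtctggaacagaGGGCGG
Over the 250 bases searched before each start, Odc1 had 4 GC boxes, of which 3 fall in the 171 bases printed, and Sat1 had 2. Of all 32851 windows of that length in the RefSeq table, 32.7% held at least 1. The RefSeq table had entries for 5 of the 10 genes, the others with an entry being Ass1, Oaz1 and Sms.

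Compared per kilobase of exon, the genes spanned several orders of magnitude. Averaged over the 18 libraries, Sat1, which acetylates spermidine and spermine for export or breakdown, stood at 305 CPM per kilobase. Oaz1, the antizyme that binds ornithine decarboxylase and sends it to the proteasome, followed at 75.5 CPM per kilobase. Arg1, the cytosolic arginase, was at 26.3 and Arg2, the mitochondrial arginase, at 14.4 CPM per kilobase. The spermidine synthase gene Srm was at 12.9 and the spermine synthase gene Sms at 2.95 CPM per kilobase. Odc1, which encodes ornithine decarboxylase, was at 1.97 CPM per kilobase, below its antizyme in each of the 18 libraries. Slc7a2, a cationic amino acid transporter, and Ass1, the argininosuccinate synthase that rebuilds arginine from citrulline, were at 1.09 and 1.08 CPM per kilobase. Nos2, the inducible nitric oxide synthase, was at 0.0040 CPM per kilobase. The range over libraries was narrowest at the top of this order. The highest library exceeded the lowest by 1.43-fold for Oaz1 and 2.27-fold for Sat1, against 41.5-fold for Arg1 and 56.5-fold for Ass1.

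Nos2 (chr11:78920787-78960254, plus strand) had 0 counts in 17 libraries. Its 6 counts all came from double heterozygote replicate 1, a level of 0.318 CPM. With a floor of 3 counts per library, a level up to 0.137 to 0.338 CPM, depending on the library, could not have been told from 0. It was the only one of the 10 genes to fail the filter on low counts, and it was not tested.

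Arg1 (chr10:24915221-24927484, minus strand) was the gene that varied most among those above a mean of 5 CPM. The WT libraries held 59.6, 81.4 and 55.98 CPM (65.7 ± 13.8, SD, n = 3). The double heterozygote libraries held 5.57, 4.51 and 6.27 CPM (5.45 ± 0.887, SD, n = 3), all below every other library in the study. Each single heterozygote lay on its own side of WT by mean. Tak1ΔM/+ held 15.7, 45.7 and 44.8 CPM (35.4 ± 17.1, SD, n = 3), all below the lowest WT library. Tbk1+/- held 187, 21.7 and 154 CPM (121 ± 87.4, SD, n = 3), so its replicates 1 and 3 were above all libraries of the other genotypes and its replicate 2 below all WT libraries. Both genotypes with a changed Ripk1 overlapped WT. Those labelled as triple heterozygotes held 75.1, 90.0 and 68.1 CPM (77.7 ± 11.2, SD, n = 3). The libraries labelled as D138N homozygotes held 55.6, 24.3 and 60.5 CPM (46.8 ± 19.6, SD, n = 3). In order of mean level the genotypes ran Tbk1+/-, triple heterozygotes, WT, D138N homozygotes, Tak1ΔM/+ and double heterozygotes. Neighbours in this order overlapped, except that the last was clear of all the others. In bulk samples such as these, fewer cells making a transcript and less of it in each cell cannot be told apart.

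**Figure D1:**
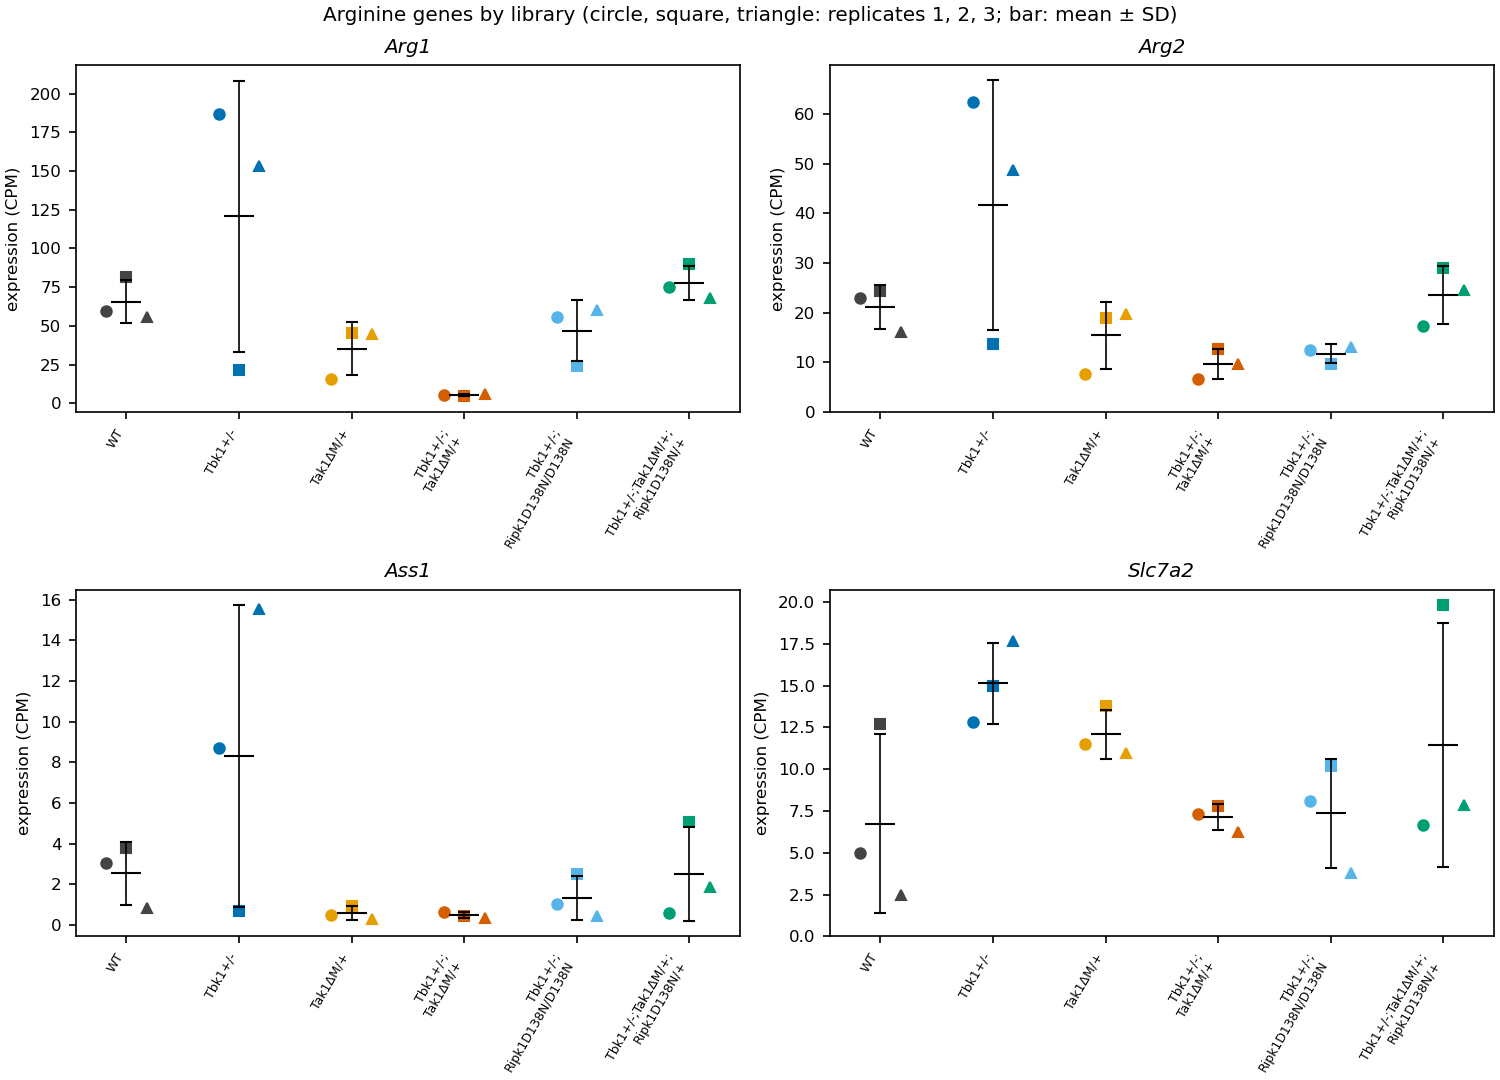
Level in CPM of the arginine genes in each of the 18 libraries, by genotype, with points for libraries and bars for the mean ± SD of 3. Arg1 in Tbk1+/-;Tak1ΔM/+ sits at 4.51 to 6.27 CPM, below every other library, and Tbk1+/- is split, with replicate 2 low in Arg1, Arg2 and Ass1.

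Arg2 (chr12:79130777-79156301, plus strand) went with Arg1 within genotypes, but over a narrower range. WT held 22.9, 24.3 and 16.1 CPM (21.1 ± 4.42, SD, n = 3) and double heterozygotes held 6.68, 12.6 and 9.76 CPM (9.69 ± 2.97, SD, n = 3), without overlap. Tbk1+/- again had high replicates 1 and 3 (62.4 and 48.8 CPM) around a low replicate 2 (13.6 CPM). The libraries labelled as D138N homozygotes were at 12.6, 9.64 and 13.2 CPM, below every WT and every Tbk1+/- library. Tak1ΔM/+ held 7.70, 18.9 and 19.7 CPM and the libraries labelled as triple heterozygotes held 17.3, 28.9 and 24.6 CPM, both overlapping WT. The ratio of Arg1 to Arg2 per kilobase was 1.67 to 2.23 in WT and 0.229 to 0.534 in double heterozygotes, the one genotype in which Arg2 was above Arg1 in all libraries. Exons of Arg2 share 285 bases with Vti1b and 116 with Gm48780 on the other strand, and the library chemistry does not mark strand, so Arg2 counts are less certain. Vti1b was between 70.8 and 104 CPM in all libraries.

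The arginine carrier and the citrulline recycling enzyme were low throughout. Slc7a2 (chr8:40862396-40922308, plus strand) lay between 2.49 and 19.8 CPM, with WT at 5.00, 12.7 and 2.49 CPM and Tbk1+/- at 12.8, 14.96 and 17.6 CPM, above all WT libraries. In double heterozygotes it held 7.32, 7.78 and 6.27 CPM, inside the WT range. Its exons share 635 bases with Gm26584 on the other strand. Ass1 (chr2:31470207-31520672, plus strand) was at 3.04, 3.77 and 0.812 CPM in WT and at 0.636, 0.451 and 0.348 CPM in double heterozygotes. Its highest libraries were Tbk1+/- replicates 1 and 3, with 8.68 and 15.5 CPM, while replicate 2 of that genotype held 0.685 CPM, the same split as in both arginases.

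On the polyamine side, Odc1 and Srm of synthesis lay above WT in double heterozygotes and Sat1 of breakdown below, while Sms overlapped WT. Odc1 (chr12:17544794-17551505, plus strand) was at 3.17, 5.42 and 3.13 CPM in WT (3.91 ± 1.31, SD, n = 3) and at 9.97, 11.4 and 12.0 CPM in double heterozygotes (11.1 ± 1.06, SD, n = 3). Tbk1+/- was also above WT, at 9.98, 5.48 and 11.3 CPM, its lowest library just over the highest of WT. Tak1ΔM/+ overlapped WT with 10.0, 6.09 and 3.02 CPM. The libraries labelled as triple heterozygotes held 5.40, 4.46 and 5.04 CPM and those labelled as D138N homozygotes 4.13, 7.14 and 3.44 CPM, and both overlapped WT.

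Srm (chr4:148591503-148594993, plus strand), which adds the first aminopropyl group, had tight replicates in 3 genotypes that did not overlap each other. WT held 17.3, 17.97 and 16.6 CPM (17.3 ± 0.690, SD, n = 3), Tbk1+/- held 9.45, 10.7 and 9.68 CPM (9.96 ± 0.683, SD, n = 3) and double heterozygotes held 29.7, 27.3 and 31.2 CPM (29.4 ± 1.96, SD, n = 3). Here, unlike in the arginases, Tbk1+/- replicate 2 lay with its 2 fellows. Tak1ΔM/+ held 28.7, 19.9 and 20.04 CPM, above all WT libraries. The libraries labelled as D138N homozygotes were spread from 14.5 to 28.8 CPM and those labelled as triple heterozygotes from 18.8 to 26.6 CPM. Sms (chrX:157443855-157492287, minus strand), which adds the second group, showed no such order: all libraries lay between 12.1 and 28.9 CPM, both ends of that range in Tbk1+/-, and all genotypes overlapped.

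Sat1 (chrX:155213132-155216449, minus strand) ran the other way from Odc1. WT held 914, 865 and 1058 CPM (946 ± 101, SD, n = 3) and double heterozygotes held 499, 499 and 549 CPM (516 ± 28.8, SD, n = 3), below all 15 other libraries. The remaining genotypes ranged from 690 to 1130 CPM and overlapped WT. Oaz1 (chr10:80826656-80829290, plus strand) differed little: 188, 182 and 190 CPM in WT against 162, 161 and 168 CPM in double heterozygotes, which again were below every other library. Both Oaz1 and Sms have 1 named pseudogene, whose reads the counting could have mixed with theirs. The ratio of Sat1 to Odc1 per kilobase was 53.8 to 61.4 in double heterozygotes and 196 to 415 in WT. The ratio of Oaz1 to Odc1 was 18.6 to 21.6 against 44.7 to 80.7. In the libraries labelled as triple heterozygotes these ratios were 199 to 246 and 50.9 to 56.1, inside the WT ranges.

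**Figure D2:**
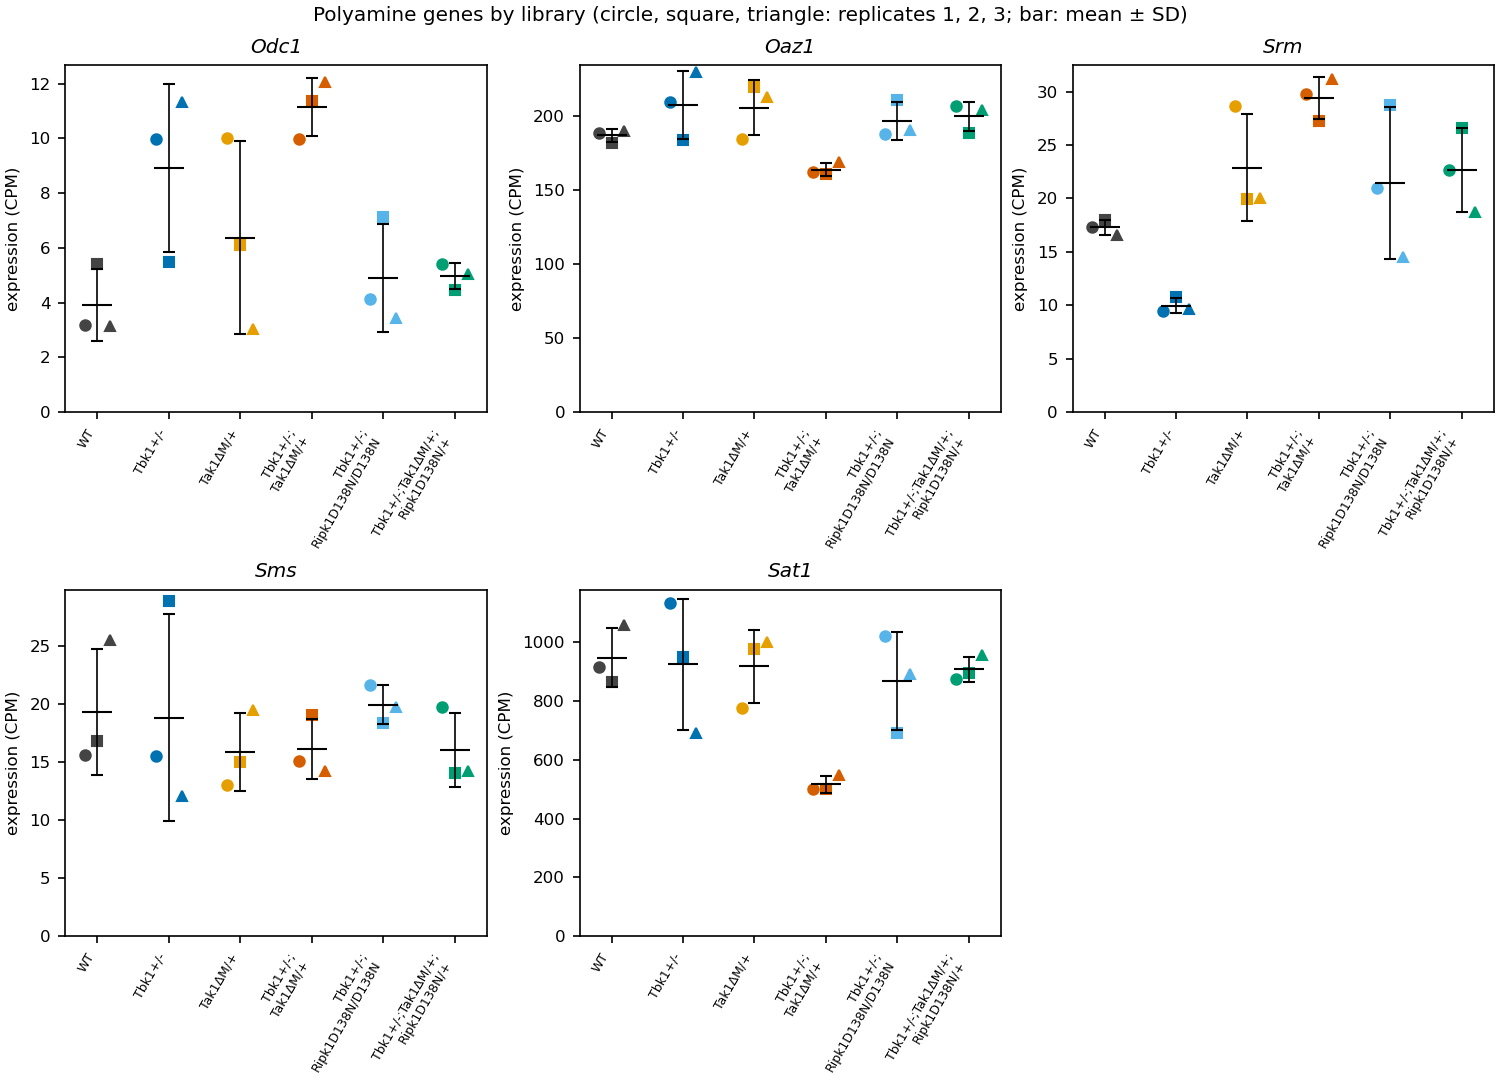
Level in CPM of the polyamine genes in each of the 18 libraries, by genotype, with points for libraries and bars for the mean ± SD of 3. In Tbk1+/-;Tak1ΔM/+ Odc1 (9.97 to 12.0 CPM) and Srm (27.3 to 31.2 CPM) are above WT while Sat1 (499 to 549 CPM) is below every other library.

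Double heterozygotes were compared with WT to see how both lost alleles act jointly. As a description, the log2 differences were -3.57 ± 0.60 (SE) for Arg1, -1.14 ± 0.44 for Arg2 and -2.39 ± 0.99 for Ass1. They were 1.51 ± 0.41 for Odc1, 0.77 ± 0.22 for Srm, -0.87 ± 0.17 for Sat1 and -0.19 ± 0.11 for Oaz1. A gene is called here when its p-value from edgeR's quasi-likelihood test, adjusted over the 13447 genes tested, is under 0.05. Where genes of a list are counted as having risen or fallen, only called genes are counted. Of the 9 genes tested, 2 were called higher (Odc1 and Srm) and 2 lower (Arg1 and Sat1), where 6.07% of all genes were called, 2.16% being higher and 3.9% lower. The libraries did not overlap for 2 genes that were higher and 5 that were lower, where that held for 15.2% and 14.4% of all genes. Because the genes were chosen with this contrast in view, nothing is read from these counts. Arg1 was not called in limma-voom, and Odc1 and Srm were not with the mitochondrial share or the Y-linked level in the fit. With any 1 library left out, Arg1 and Sat1 stayed called, while Odc1 was not called without any 1 of the WT or double heterozygote libraries. Srm stayed called only without Tak1ΔM/+ replicate 1, Tbk1+/- replicate 2 or either of replicates 2 and 3 labelled as D138N homozygotes.

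Several library measures moved with these levels. The share of mitochondrial counts was 0.463% ± 0.0824 in double heterozygotes, 1.24% ± 0.499 in WT and 2.01% ± 0.191 in Tbk1+/- (SD, n = 3 each). A list of 24 cell cycle genes summed to 379 to 386 CPM in double heterozygotes against 595 to 771 CPM in WT. Of its genes 14 were called lower, where 3.9% of all genes were. Of 20 type I interferon response genes, 17 were called higher, where 2.16% of all genes were. Of the 12 microglia markers 2 were called lower, Itgam going from 82.2 to 42.8 CPM and Ptprc from 450.4 to 254.7 CPM. Oligodendrocyte lineage markers (10 genes, mostly from Mbp and Cnp, Mog at or near 0) summed to 168 to 171 CPM against 137 to 153 CPM in WT. Astrocyte markers (10 genes, S100b at or near 0) summed to 24.7 to 33.03 CPM against 43.7 to 58.6 CPM in WT, and fibroblast, mural and endothelial markers (10 genes, Rgs5 at 0) to 5.07 to 8.96 against 12.9 to 56.2 CPM. Blood cell markers (12 genes, Hbb-bs, Hba-a1, Ncr1 and S100a9 at 0) summed to 0.498 to 1.13 against 2.28 to 3.77 CPM, and of the 12 only S100a8 passed the filter on low counts. Their part in the arginine and polyamine levels was not tested. With the mitochondrial share in the fit the log2 difference of Arg1 was -3.27 and that of Sat1 -0.93. Over the alternatives other than leaving out 1 library, Arg2 ran from -1.22 to -0.58 and Ass1 from -2.89 to -0.80. The share was 0.367 to 0.512% in double heterozygotes and 0.671 to 1.62% in WT, without overlap. Share and genotype therefore cannot be told apart here.

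The same libraries set against Tbk1+/- or Tak1ΔM/+ ask what the second allele adds. These comparisons share the double heterozygote libraries, and the level on which the genes were chosen, so the values and calls below are not separate evidence. Against Tbk1+/- the log2 differences were -4.45 ± 0.62 for Arg1, -2.12 ± 0.44 for Arg2, -4.09 ± 1.03 for Ass1, -0.84 ± 0.17 for Sat1 and -0.34 ± 0.11 for Oaz1, with Srm at 1.56 ± 0.22. Of the 9 genes, 1 was called higher and 5 lower, where 14.7% of all genes were called, 6.44% being higher and 8.24% lower. Ass1 was not called without Tbk1+/- replicate 3 or double heterozygote replicate 3, and Oaz1 was not without Tbk1+/- replicate 1 or 3 or any 1 of the double heterozygote libraries. With the mitochondrial share in the fit, 1 gene, Srm, stayed called (1.68). Sat1 was then at -0.96 and Arg1 at -3.85, while Arg2 was at -1.01, Ass1 at -1.29 and Oaz1 at -0.20. The share was 0.367 to 0.512% in double heterozygotes and 1.82 to 2.20% in Tbk1+/-, without overlap. Share and genotype cannot be told apart there, so nothing is read from a call kept or lost with it. Border macrophage and monocyte markers (10 genes, Ly6c2 and Plac8 at or near 0) summed to 1197 to 1236 CPM against 1494 to 1620 CPM in Tbk1+/-, and their part was not tested. Against Tak1ΔM/+ the log2 differences were -2.67 ± 0.59 for Arg1 and -0.83 ± 0.17 for Sat1, both called lower, where 2.79% of all genes were called (2.05% lower). Neither call held without Tak1ΔM/+ replicate 2 or 3, or without double heterozygote replicate 1 or 2, and Arg1 was also lost without replicate 3, in limma-voom and with the mitochondrial share in the fit (-2.37). With the Y-linked level in the fit neither was called. Y-linked transcripts were at 0 to 3.02 CPM in Tak1ΔM/+ and at 75.9 to 99.5 CPM in double heterozygotes, so sex of the pups and genotype cannot be told apart there, and Sat1 is X-linked.

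**Figure D3:**
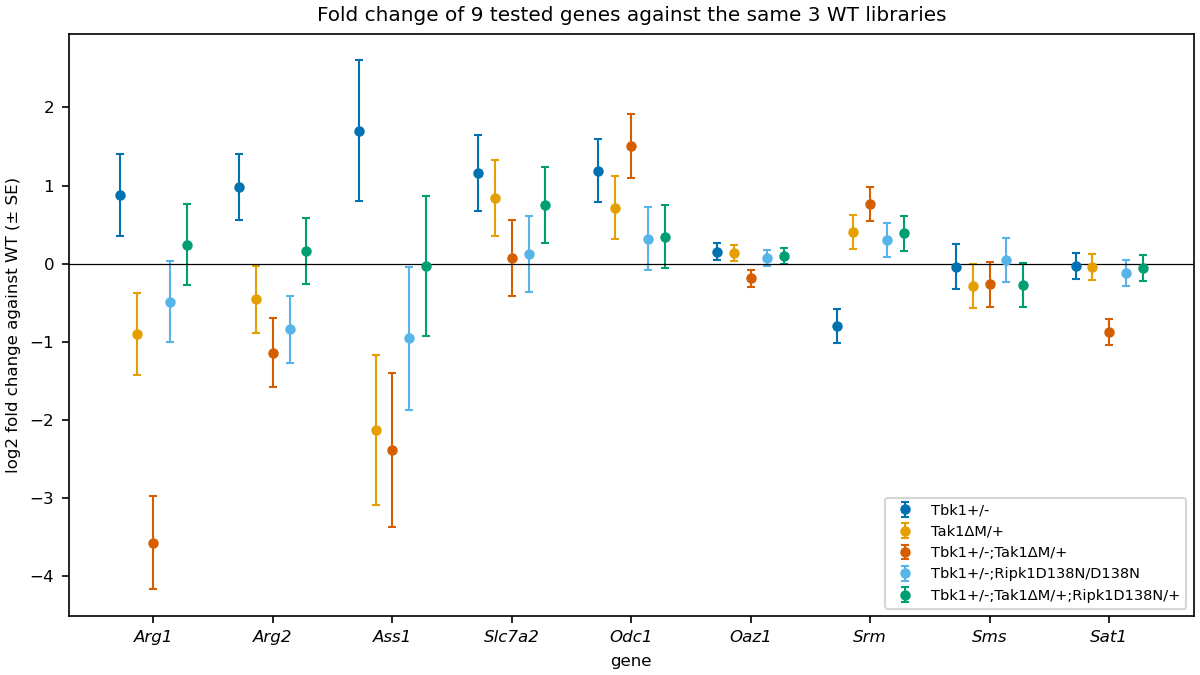
Log2 difference (y axis) of the 9 tested genes (x axis) between each of the 5 other genotypes and WT, points coloured by genotype with bars for ± SE from edgeR. All points share the 3 WT libraries. Tbk1+/-;Tak1ΔM/+ is at -3.57 for Arg1, 1.51 for Odc1 and -0.87 for Sat1.

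Adding 1 Ripk1D138N allele to double heterozygotes asks whether RIPK1 kinase activity bears on their levels. Libraries labelled as triple heterozygotes differed from double heterozygotes by 3.81 ± 0.60 in log2 for Arg1, 1.30 ± 0.44 for Arg2, 0.81 ± 0.17 for Sat1 and -1.16 ± 0.40 for Odc1. Arg1 and Sat1 were called higher, where 2.45% of all genes were called (1.84% higher). These calls use the level on which the genes were chosen, and nothing is read from them. Arg1 was not called in limma-voom, and Sat1 was lost without double heterozygote replicate 1 or 2 or without replicate 2 or 3 of the labelled genotype. Tbk1 was at the WT level in all 3 of these libraries, so the difference from double heterozygotes cannot be told apart from a difference in Tbk1 itself. In the same comparison 14 of the 24 cell cycle genes rose, 15 of the 20 interferon response genes fell and 2 of the 12 microglia markers, Cx3cr1 and Itgam, rose. Y-linked transcripts were at 0 to 61.5 CPM against 75.9 to 99.5 CPM. With the Y-linked level in the fit the log2 difference was 3.58 for Arg1 and 0.70 for Sat1. The part of the cell cycle, interferon and microglia genes was not tested. Compared with WT, the 3 libraries had 0 of the 9 genes called, where 0% of all genes were called. In that comparison 0 of the 9 had an unadjusted p under 0.05 in edgeR, where 7.99% of all genes did, and DESeq2 and limma-voom called 0. The 95% interval of the Arg1 log2 difference from WT ran from -0.89 to 1.37, around 0.24 (adjusted p = 0.971 in edgeR).

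Single loss of 1 Tbk1 allele and of 1 Tak1 allele were then compared with WT, here with tests. For Tbk1+/- none of the 9 genes was called, where 0.0521% of all genes were called. Their unadjusted p was under 0.05 for 4 in edgeR, where it was for 10.2% of all genes, and DESeq2 and limma-voom called 0. Odc1 had a log2 difference of 1.19 ± 0.40 (SE; edgeR adjusted p = 0.338) and Slc7a2 of 1.17 ± 0.49 (adjusted p = 0.426), both higher in 3 of 3 libraries. Srm had a log2 difference of -0.80 ± 0.22 (edgeR adjusted p = 0.254), lower in 3 of 3 libraries. Arg1 (0.88 ± 0.52, edgeR adjusted p = 0.597) and Arg2 (0.98 ± 0.42, adjusted p = 0.450) were not called, with replicate 2 against the other libraries of its genotype. Without that library Arg2 was called, at a log2 difference of 1.40 (edgeR adjusted p = 0.035). Replicate 2 also had less of the cell cycle list, at 638 CPM against 1152 and 1250 CPM in its fellows, and 15.4 CPM of Mki67 against 70.9 and 61.1 CPM. Border macrophage and monocyte markers summed to 1494 to 1620 CPM in Tbk1+/- and 938 to 1300 CPM in WT. The part of the cell cycle list and of these markers was not tested. The mitochondrial share was 1.82 to 2.20% in Tbk1+/- and 0.671 to 1.62% in WT, without overlap, so that share and genotype cannot be told apart here.

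For Tak1ΔM/+ none of the 9 genes was called, where 0.0149% of all genes were called. Their unadjusted p was under 0.05 for 1 in edgeR, where it was for 9.47% of all genes, and DESeq2 and limma-voom called 0. Arg1 had a log2 difference from WT of -0.90 ± 0.53 (edgeR adjusted p = 0.628), lower in 3 of 3 libraries, with a 95% interval from -2.04 to 0.25. Ass1 differed by -2.13 ± 0.96 (edgeR adjusted p = 0.494) and Srm by 0.40 ± 0.22 (adjusted p = 0.582).

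The 4 genotypes without a Ripk1 change allow the joint effect to be set against the sum of the single ones. The log2 difference of differences was -3.55 ± 0.78 (SE) for Arg1, -1.66 ± 0.61 for Arg2, -1.93 ± 0.69 for Slc7a2 and -0.79 ± 0.24 for Sat1, while Srm stood at 1.16 ± 0.31. Arg1 alone was called, where 1.75% of all genes were called. That call uses the level on which Arg1 was chosen, and nothing is read from it. It was lost without any 1 of the WT or double heterozygote libraries, without Tbk1+/- replicate 1 or 3, or without Tak1ΔM/+ replicate 2 or 3. Over the 6 genotypes together 5 of the 9 genes were called (Arg1, Arg2, Ass1, Srm and Sat1), where 7.18% of all genes were called, again with that level among the values tested.

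The comparison of D138N homozygotes with Tbk1+/- asks what removing RIPK1 kinase activity does beside the loss of 1 Tbk1 allele. Srm rose from 9.96 ± 0.683 to 21.4 ± 7.13 CPM (SD, n = 3), a log2 difference of 1.10 ± 0.22 (SE; edgeR adjusted p = 0.0411), higher in 3 of 3 libraries. It was the 1 gene of the 9 called, where 0.521% of all genes were called. The call was lost in limma-voom (adjusted p = 0.0788), with the mitochondrial share (0.193) or the Y-linked level (0.058) in the fit, and in edgeR on the compared libraries alone (0.286). It was kept when the library left out was WT replicate 3, Tbk1+/- replicate 2, Tak1ΔM/+ replicate 1, replicate 3 labelled as a D138N homozygote or replicate 1 labelled as a triple heterozygote. Leaving out any other library ended it, at edgeR adjusted p from 0.0508 (Tak1ΔM/+ replicate 3) to 0.158 (D138N homozygote replicate 1). Without the 5 libraries whose Tbk1 level went against their label, the adjusted p was 0.129 and the log2 difference 1.53, with 1 D138N homozygote library left, assumed to vary like the other groups. Y-linked transcripts were at 0 to 42.9 CPM in D138N homozygotes and 59.8 to 187 CPM in Tbk1+/-. The mitochondrial share was 0.449 to 1.57% against 1.82 to 2.20%, without overlap, so that share and genotype cannot be told apart here. Border macrophage and monocyte markers summed to 1202 to 1260 CPM against 1494 to 1620 CPM, and their part was not tested.

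In the same comparison Arg2 had a log2 difference of -1.82 ± 0.44 (SE; edgeR adjusted p = 0.0723), lower in 3 of 3 libraries. DESeq2 called it (adjusted p = 0.00236), and edgeR did so without Tbk1+/- replicate 2 (0.0013) or without Tak1ΔM/+ replicate 1 (0.0456). Arg1 was not called (-1.36 ± 0.53, edgeR adjusted p = 0.224), but was without Tbk1+/- replicate 2 (0.00622). Ass1 at -2.66 ± 0.94 (edgeR adjusted p = 0.186) was called likewise without that library (0.0327). Against WT none of the 9 genes was called for D138N homozygotes, where 0% of all genes were called. There 0 of the 9 had an unadjusted p under 0.05 in edgeR, where 5.12% of all genes did, and DESeq2 and limma-voom called 0. The 95% interval of the Arg2 log2 difference from WT was -1.78 to 0.098, around -0.84 (edgeR adjusted p = 0.934).

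Genes around the 10 in the same pathways were taken from lists of 56 genes, of which 46 were tested. These lists, and the activation and regulator lists below, were chosen with earlier results of these data known. Their calls and p-values are therefore not those of lists fixed in advance. In double heterozygotes against WT, 3 of the 46 rose and 0 fell, with a median log2 difference of 0.073 against 0.0038 over all genes. Over all genes 6.07% were called, so 3 of 46 is near that share. Gch1, GTP cyclohydrolase, makes the tetrahydrobiopterin that nitric oxide synthases need. It rose from 11.9 ± 2.66 to 44.0 ± 6.61 CPM (log2 1.88 ± 0.32 SE, edgeR adjusted p = 0.00344), and no library left out ended that call. Dhps, which uses spermidine in the first step of making hypusine on eIF5A, rose from 20.4 to 36.0 CPM (0.82 ± 0.20, edgeR adjusted p = 0.0209). Without double heterozygote replicate 3, WT replicate 1 or WT replicate 2 the Dhps call was lost (0.109, 0.0681 and 0.0969). Slc3a2, the heavy chain shared by several amino acid transporters, rose from 419 to 635 CPM (0.60 ± 0.16, edgeR adjusted p = 0.0362). The Slc3a2 call was kept, among these 6 libraries, only without WT replicate 2, and ran up to an adjusted p of 0.137 without double heterozygote replicate 3. With the mitochondrial share in the fit neither Dhps (0.85) nor Slc3a2 (0.71) was called. In arginine catabolism and the urea cycle, 0 of 14 tested genes were called in edgeR. An unadjusted p under 0.05 was reached by 1, given without the share over all genes, and nothing is read from that count.

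Against Tbk1+/-, 6 of the 46 genes rose and 3 fell, with a median of -0.043 against 0.0067 over all genes, of which 14.7% were called. Gch1 rose by 2.14 ± 0.33 in log2 (edgeR adjusted p = 0.000697) and was kept with each library left out. Ddah2, which degrades the methylarginines that inhibit nitric oxide synthase, rose by 0.90 ± 0.22 (edgeR adjusted p = 0.0109; 0.0582 without Tbk1+/- replicate 1). Atp13a2, a lysosomal polyamine exporter, rose from 154 to 248 CPM (0.68 ± 0.18, edgeR adjusted p = 0.0169; 0.0514 without Tbk1+/- replicate 3 and 0.0616 without double heterozygote replicate 3). Mat2a, which makes the methyl donor from which aminopropyl groups derive, rose from 104 to 186 CPM (0.84 ± 0.24, edgeR adjusted p = 0.0241). Its call was lost without Tbk1+/- replicate 1 or 3, or without double heterozygote replicate 1 or 2 (0.058 to 0.0885). Gatm, which uses arginine for creatine synthesis, fell from 98.3 to 55.8 CPM (-0.81 ± 0.21, edgeR adjusted p = 0.0132). Its libraries overlapped, and the call was lost without Tbk1+/- replicate 3 (0.0851) or double heterozygote replicate 1 or 2 (0.0503 and 0.0532). Eif5a2, a substrate of the hypusine pathway, fell by 1.03 on the log2 scale (edgeR adjusted p = 0.0309). Without Tbk1+/- replicate 1 or 3, or double heterozygote replicate 1 or 3, that call was lost (0.0602 to 0.141). The other 3 called genes were Slc3a2 (0.63) and Dhps (0.73), higher, and Qdpr (-0.58), lower, each lost without Tbk1+/- replicate 1 (edgeR adjusted p of 0.0726, 0.0677 and 0.0749). Dhps was also lost without Tbk1+/- replicate 2, Slc3a2 and Dhps without double heterozygote replicate 3, and Qdpr without Tbk1+/- replicate 3 or double heterozygote replicate 1 or 2. None of the 9 was called with the mitochondrial share in the fit. There the log2 difference was 1.88 for Gch1, 0.83 for Slc3a2, 0.79 for Dhps, -0.71 for Gatm and -0.87 for Eif5a2. It was smaller for Ddah2 (0.53), Atp13a2 (0.37) and Mat2a (0.36), and 0.01 for Qdpr. The share did not overlap between these genotypes, so a call lost with it does not separate share from genotype.

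In each remaining comparison of 1 genotype with another, at most 1 of the 46 was called in edgeR. Ddah1, like Ddah2 a methylarginine hydrolase, rose from 0.252 CPM in Tak1ΔM/+ to 3.95 CPM in double heterozygotes (3.83 ± 0.84, edgeR adjusted p = 0.0192). Its call was lost without Tak1ΔM/+ replicate 2 or 3 (0.0985 and 0.0639) or double heterozygote replicate 1 or 3 (0.065 and 0.0548), and with the mitochondrial share (0.0555) or the Y-linked level (0.0751) in the fit. In that comparison 2.79% of all genes were called. Ckb, brain creatine kinase, rose from 196 to 337 CPM from Tbk1+/- to D138N homozygotes (0.78 ± 0.17, edgeR adjusted p = 0.0469), where 0.521% of all genes were called. That call was kept only without Tak1ΔM/+ replicate 1, Tbk1+/- replicate 2 or the replicate 1 labelled as a triple heterozygote, and reached 0.158 without D138N homozygote replicate 1. It was also lost with the mitochondrial share (0.221) or the Y-linked level (0.117) in the fit, and on the compared libraries alone (0.318). Without the 5 libraries whose Tbk1 level went against their label, the log2 difference of Ckb was 0.99, with 1 D138N homozygote library left. In the comparison of the libraries labelled as triple heterozygotes with double heterozygotes, edgeR called 0 of the 46, where 2.45% of all genes were called. DESeq2 called 3 and limma-voom 1. In edgeR 11 had an unadjusted p under 0.05, given without the share over all genes, and nothing is read from that count.

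Arg1 is a marker of alternative activation of macrophages, so 20 other genes of that state were listed, of which 13 were tested. None was called in double heterozygotes against WT in edgeR, where 6.07% of all genes were called. An unadjusted p under 0.05 was reached by 4, given without the share over all genes, and nothing is read from that count. Against Tbk1+/-, 1 rose and 2 fell, where 14.7% of all genes were called. Pparg, a nuclear receptor of this state, rose from 23.8 to 76.8 CPM (1.69 ± 0.39, edgeR adjusted p = 0.0072) and was kept with each library left out. Clec7a, the receptor dectin-1, fell from 836 to 416 CPM (-1.01 ± 0.28, edgeR adjusted p = 0.0225), a call lost without Tbk1+/- replicate 2 or double heterozygote replicate 2 or 3 (0.0997, 0.0638 and 0.0952). Tgm2, transglutaminase, fell from 127 ± 119 to 24.3 ± 5.52 CPM (-2.37 ± 0.54, edgeR adjusted p = 0.00712), with overlapping libraries, and was lost without Tbk1+/- replicate 3 (0.0601). Tgm2 also fell from Tbk1+/- to D138N homozygotes (-2.65 ± 0.55, edgeR adjusted p = 0.0411). That call was lost on the compared libraries alone (0.292) and was kept only without WT replicate 3, Tbk1+/- replicate 2, Tak1ΔM/+ replicate 1 or the replicate 1 labelled as a triple heterozygote, reaching 0.183 without Tbk1+/- replicate 3. It was also lost in limma-voom (0.185) and with the mitochondrial share (0.332) or the Y-linked level (0.162) in the fit. With the mitochondrial share in the fit none of the 3 was called against Tbk1+/- in double heterozygotes, Clec7a being at -0.084, Pparg at 1.27 and Tgm2 at -2.24. Share and genotype cannot be told apart in that comparison. Retnla, Chil3, Chil4, Ccl17 and Cd209a had no count in any library.

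Of 18 genes known to regulate Arg1, Nos2 or Odc1, all tested, 2 rose in double heterozygotes against WT, where 6.07% of all genes were called. Of these, Jun rose by 0.51 ± 0.13 (edgeR adjusted p = 0.0296) and was lost without any 1 of the 6 libraries, at up to 0.133 without double heterozygote replicate 3, and with the mitochondrial share in the fit (0.0555). Against Tbk1+/-, where 14.7% of all genes were called, 5 rose and 2 fell. Among those that rose was Myc, which drives Odc1 transcription in many cells (16.1 to 31.1 CPM, 0.95 ± 0.24, edgeR adjusted p = 0.0133). Its antagonist Mxi1 fell from 25.8 to 10.7 CPM (-1.28 ± 0.30, edgeR adjusted p = 0.00816) and was kept with each library left out. The Myc call was lost without Tbk1+/- replicate 1 or 3 or double heterozygote replicate 3 (0.075, 0.0561 and 0.0624). Odc1 differed by 0.32 ± 0.39 in log2 in that comparison, was not called and had overlapping libraries. A link between Myc and the Odc1 level was not tested. Irf1 (0.88) rose as well, losing its call without any double heterozygote library or Tbk1+/- replicate 1 or 3 (up to 0.14). With the mitochondrial share in the fit Myc (0.83), Mxi1 (-0.99) and Irf1 (0.76) were not called, but share and genotype cannot be told apart there.

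From Tbk1+/- to D138N homozygotes, 1 regulator rose and 1 fell, where 0.521% of all genes were called. Myc rose from 16.1 to 39.2 CPM (1.28 ± 0.24, edgeR adjusted p = 0.0387) and Hif1a, the hypoxia-inducible factor, fell from 235 to 130 CPM (-0.85 ± 0.18, edgeR adjusted p = 0.0411). Both calls were lost on the compared libraries alone (0.286 for each) and without Tbk1+/- replicate 1 or 3 (0.143 and 0.137 for Myc, 0.169 and 0.144 for Hif1a). They were also lost without any 1 of the 3 libraries labelled as D138N homozygotes and without several libraries of other genotypes. The same held with the mitochondrial share (0.21 for Myc, 0.265 for Hif1a) or the Y-linked level (0.0839 and 0.058) in the fit. Without the 5 libraries whose Tbk1 level went against their label, 1 D138N homozygote library was left. The log2 difference was then 1.59 for Myc and -0.81 for Hif1a. With all libraries, Odc1 had a log2 difference of -0.87 ± 0.40 (edgeR adjusted p = 0.311), with overlapping libraries. Any link between Myc and Odc1 was not tested.

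Over the 18 libraries, the genes differed in how far they went together. Arg1 and Arg2 had a Pearson r of 0.82 on log2 CPM, and 0.88 after the genotype means were removed. Arg2 and Ass1 had an r of 0.79, and Arg1 and Sat1 of 0.77, though the latter pair had 0.25 within genotypes. Odc1 and Sat1 ran opposite (-0.69, and -0.57 within genotypes), as did Arg2 and Srm (-0.70). Arg1 had an r of 0.82 with the proliferation marker Mki67, of 0.48 within genotypes, and of 0.52 with the mitochondrial share. For Arg2 and Ass1 the r with that share was 0.67 each, and for Srm -0.60. These are descriptions over points that share genotypes and library depth.

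**Figure D4:**
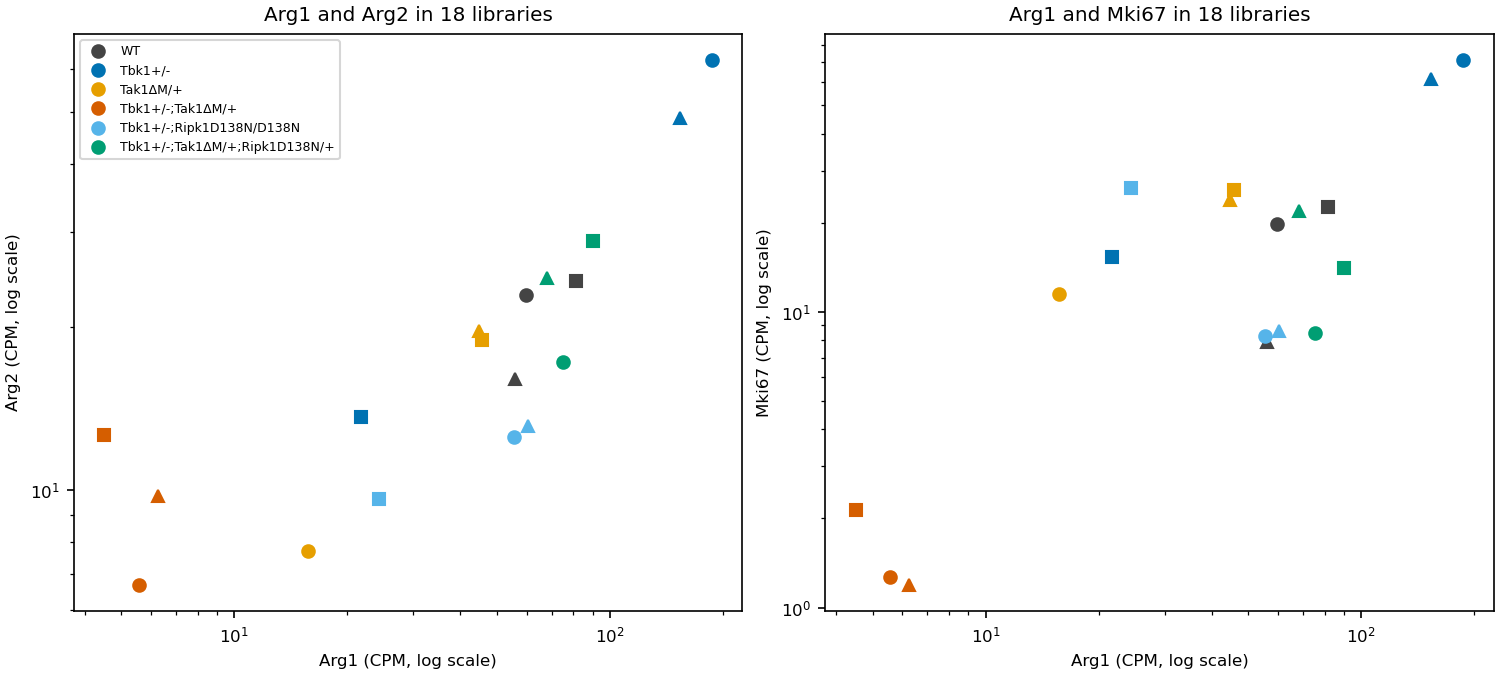
Arg1 (x axis, CPM, log scale) against Arg2 (left) and Mki67 (right, both CPM, log scale) in the 18 libraries, with colour for genotype and circles, squares and triangles for replicates 1, 2 and 3. Arg1 and Arg2 run together (r = 0.82), with the 3 Tbk1+/-;Tak1ΔM/+ libraries at the low end of Arg1.

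Where the mean reached 5 CPM or more, the 5 genes whose log2 level was most like that of Arg1 over the 18 libraries were Lpcat2 (r = 0.94), Ccnb1 (0.94), Pld4 (0.94), Plk1 (0.93) and Dap (0.92). Lpcat2 encodes an acyltransferase of phospholipid remodelling and Pld4 an endolysosomal exonuclease, while Ccnb1 and Plk1 encode the mitotic cyclin B1 and polo-like kinase. These genes, and those for Odc1 below, were picked by likeness over libraries that include the double heterozygotes. Their levels in that genotype therefore follow in part from the choice and are a description. Pld4 was 152 ± 11.9 CPM in WT and 60.2 ± 5.42 CPM in double heterozygotes (SD, n = 3). Lpcat2 was 94.1 ± 11.8 and 53.1 ± 1.87 CPM, and Plk1 13.2 ± 5.28 and 2.53 ± 1.26 CPM in the same genotypes. For Odc1 the 5 were Cars (0.88), Dusp5 (0.87), Asns (0.85), Eif1 (0.84) and Aars (0.84). Cars and Aars encode cysteinyl- and alanyl-tRNA synthetase, Asns asparagine synthetase, Eif1 a translation initiation factor and Dusp5 a nuclear phosphatase of ERK. Asns was 15.3 ± 9.58 CPM in WT, 49.5 ± 27.1 CPM in Tbk1+/- and 47.6 ± 5.79 CPM in double heterozygotes. Dusp5 was 2.42 ± 1.58, 5.91 ± 1.38 and 16.6 ± 3.80 CPM in those genotypes (SD, n = 3).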

How the data were processed

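Counts of reads per gene were deposited by the authors as 1 table for all 18 libraries. Per the labels' protocols, Smart-seq2 libraries were made from 1 ng of RNA with 12 PCR cycles and sequenced as paired reads. The submitters' processing notes name STAR, featureCounts and mm10, while the labels' protocol names RSEM; the values were whole numbers and were taken as counts. Versions and the strand setting are not given in the sources used here. Of 50686 identifiers, 50376 matched a symbol in GENCODE M21, and those without held at most 0.00437% of a library's counts. Counts came without molecular identifiers, so floors cover counting error only.

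filterByExpr kept 13447 genes. CPM is counts over the TMM-scaled total, times 1e+06. Main tests used edgeR 4.0.16 quasi-likelihood in R 4.3.3, with 1 term per genotype over all 18 libraries and Benjamini-Hochberg adjustment; SE is the log2 difference over the root of F, SD is over 3 libraries, and 95% intervals use the t distribution on 12 residual degrees of freedom. The test was checked on simulated counts. DESeq2 1.42.0, limma-voom (limma 3.58.1), other filters and scalings, covariates and each library left out were alternatives. The members and gene lists were chosen with earlier results of these data known. Named genes were the 10 throughout, up to 4 called genes of each list per comparison by size of change, the 5 most correlated with Arg1 and with Odc1, and Tbk1. Replicate numbers did not pair libraries: of 45 pairs with the same number in different genotypes, 7 had a correlation of deviations over 0.1 (median -0.0069). 1 gene of the list of regulators is not reported here.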

Additional observations from a re-analysis of the deposited data

Results flagged for a closer look

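The difference of differences for Arg1 was flagged because it was called in edgeR's interaction term. That call uses the level on which Arg1 was chosen. The log2 difference that went with 1 lost Tbk1 allele was shifted by -3.55 ± 0.78 (SE) where 1 Tak1 allele was also lost. Without the Tak1 change, Tbk1+/- was 0.88 above WT in log2, and with it double heterozygotes were -2.67 from Tak1ΔM/+. Since Arg1 was chosen with its low level in double heterozygotes known, no p-value is given and the value is a description. Tbk1+/- replicate 2 (21.7 CPM of Arg1 against 187 and 154 CPM) bears on it, and without Tbk1+/- replicate 1 the value was -3.10. Arg1 was not called in limma-voom, in the fit with a replicate block, on the compared libraries alone or with the mitochondrial share in the fit. Nor was it called without any 1 of the WT or double heterozygote libraries, without Tbk1+/- replicate 1 or 3, or without Tak1ΔM/+ replicate 2 or 3. The mitochondrial share differed between the 4 genotypes, and with it in the fit the value was -2.94. With the Y-linked level in the fit it was -3.14, and without the 5 libraries whose Tbk1 level went against their label -3.55.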

How the results depend on the processing

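The alternatives were listed in advance, except leaving out the 5 libraries whose Tbk1 level went against their label, which was chosen after seeing the data and leaves 1 D138N homozygote library, assumed to vary like the other groups. Over 96 fold changes and 2665 alternative values, 2370 kept direction and side of the threshold, 252 lost a call, 42 gained one and 1 reversed (Qdpr in double heterozygotes against Tbk1+/-, 0.0053 with the mitochondrial share as covariate). Fold changes of 22 gene and comparison pairs close to 0 are not printed, since their sign turned. Where the number of calls moved by over 1.5 times, the cause was not tested.

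Counts of the 10 genes called moved as follows. In double heterozygotes against WT (4 called) they were 2 with the mitochondrial share and 2 with the Y-linked level as covariate. Against Tbk1+/- (6) they were 1 with the mitochondrial share. Against Tak1ΔM/+ (2) they were 1 in limma-voom, 1 with the mitochondrial share and 0 with the Y-linked level. For triple heterozygotes against double heterozygotes (2) they were 1 in limma-voom, 4 without a low-count filter and 4 on the compared libraries alone. For D138N homozygotes against Tbk1+/- (1) they were 2 in DESeq2, 2 at a mean of at least 5 CPM, 4 without a filter, and 0 in limma-voom, with either covariate, on the compared libraries alone and without the 5 libraries. For the interaction (1) they were 4 in DESeq2, 2 at a mean of at least 5 CPM, 5 without a filter, 2 with the Y-linked level, and 0 in limma-voom, with the mitochondrial share, on the compared libraries alone and without the 5 libraries. For the overall test (5) they were 2 in limma-voom and 1 with the mitochondrial share. Without a filter they were 3 for Tbk1+/- and 1 for Tak1ΔM/+ against WT (0 each).

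Counts of the other 46 pathway genes moved as follows. In double heterozygotes against WT (3) they were 5 in DESeq2, 1 with the mitochondrial share, 5 without a filter and 6 on the compared libraries alone. Against Tbk1+/- (9) they were 0 with the mitochondrial share and 5 on the compared libraries alone. Against Tak1ΔM/+ (1) they were 2 in DESeq2, 0 at a mean of at least 5 CPM, 0 with either covariate, 4 without a filter and 2 on the compared libraries alone. For triple heterozygotes against double heterozygotes (0) they were 3 in DESeq2, 1 in limma-voom, 6 without a filter, 4 on the compared libraries alone and 1 with the Y-linked level. For D138N homozygotes against Tbk1+/- (1) they were 2 in DESeq2, 5 without a filter, and 0 with either covariate, on the compared libraries alone and without the 5 libraries. For the interaction (0) they were 1 in DESeq2 and 3 without a filter, and for the overall test (5) 10 in DESeq2, 0 with the mitochondrial share and 11 without a filter. Without a filter they were 2 for Tbk1+/- and 3 for Tak1ΔM/+ against WT (0 each), the latter also 1 in DESeq2.

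With a replicate block in the fit, the count of the 10 genes called was 0 for the interaction (1 without it) and 0 for D138N homozygotes against Tbk1+/- (1 without it), where Srm had an adjusted p of 0.0501 in edgeR. The block moved no other count by over 1.5 times. The replicate numbers do not pair the libraries, so a call lost under the block is not a weaker effect.

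Leaving out 1 library at a time, the count of the 10 genes called ranged from 2 to 5 in double heterozygotes against WT, 4 to 6 against Tbk1+/- and 0 to 2 against Tak1ΔM/+. It ranged from 1 to 3 for triple heterozygotes against double heterozygotes, 0 to 4 for D138N homozygotes against Tbk1+/-, 0 to 4 for the interaction, 2 to 6 for the overall test and 0 to 1 for Tbk1+/- against WT. The pathway genes called ranged, in the same order, from 1 to 4, 3 to 11, 0 to 2, 0 to 1, 0 to 5, 0 to 2, 1 to 7 and 0 to 2. In the other 3 comparisons with WT both counts stayed at 0. At 8016559 to 22989116 counts per library, Nos2 and Ass1 rest on few counts (6 and 789 in all), and differences in them are limited by depth.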
